A study of Homo sapiens with 2 samples.

Results

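Replication-dependent histone genes supply the histones that package newly made DNA. They were taken here as all genes whose symbol names a member of the H1, H2A, H2B, H3 or H4 families of the histone clusters. A gene entered when a sequence of the array carried its symbol and no other, and 57 of the 18417 genes on the arrays were chosen in this way. They comprise 6 H1, 14 H2A, 16 H2B, 8 H3 and 13 H4 genes. Their levels were compared in HT1080, an established cell line from a human fibrosarcoma, after 24 h of growth on plastic coated with rLCC111 or with BSA. rLCC111 is a recombinant coiled-coil domain of laminin, assembled from truncated mouse α1, β1 and γ1 chains that were produced in a human kidney line, and BSA served as the control coating without matrix protein. There was 1 array of total RNA for each coating, so no difference has a replicate check and no p-value is given. Cells for each coating grew in their own coated wells, and the labels and methods do not say whether these cultures were run in parallel.

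Each nucleosome holds a core made of H2A, H2B, H3 and H4, and H1 binds the DNA between cores. Most genes of these histones lie in clusters and have no introns, and their mRNAs end in a stem-loop in place of a poly(A) tail. Transcription of these genes and processing of the 3′ ends are linked to S phase, when DNA is copied, so that histone mRNA is plentiful in cells that replicate and scarce in the others. Many copies of a family encode the same or nearly the same protein, and probes for such copies can bind each other's RNA. The copies are therefore not independent measurements.

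The level of a gene is the log2 signal that the authors derived with RMA, a method that corrects background, normalizes the arrays and summarises the probes of a sequence. Differences are log2 levels, rLCC111 minus BSA throughout. The array medians were 7.12 on rLCC111 and 7.04 on BSA. To judge which copies gave signal, a limit of 6.62 was set from 379 olfactory, taste and related receptor genes taken as silent, 95% of which had a lower mean level. By this limit 45 histone genes were bright and 12 were dim, and the same 45 had at least 1 array above it. Signal depends on the probes of each sequence, so bright and dim describe signal and do not rank the copies by abundance. The mesenchymal markers VIM, FN1, CD44, S100A6, LGALS1, MMP14 and ITGB1 were above the limit on both arrays, and of 12 measured epithelial, blood and endothelial markers all but KRT14 were below it on both.

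Most histone genes had slightly lower levels on rLCC111 than on BSA. The median difference of the 57 genes was -0.24, a fold of 0.847, while the median of all 18417 genes was 0.00. The difference was below 0 for 43 of the 57 histone genes and above 0 for 14, whereas 46.6% of all genes were below 0 and 46.2% above. After median centring of the arrays, 49 were below 0 and 8 above, when 73.6% of all genes were below 0. At least 1.2-fold lower were 26 histone genes, 45.6% of them, against 5.89% of all genes and 7.14% of the 12514 genes with a mean level above the limit. At least 1.2-fold higher were 2 histone genes, against 6.76% of all genes and 7.74% of those above the limit. No histone gene was 2-fold different in either direction, a limit passed by 0.0869% of all genes on the lower side and 0.239% on the higher side, and by 0.128% and 0.264% of the genes above the limit. The differences ran from -0.74 for H2AC13 to 0.66 for H4C4. In RNA from whole cultures, fewer cells in S phase and less histone mRNA per cell cannot be told apart.

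**Figure D1:**
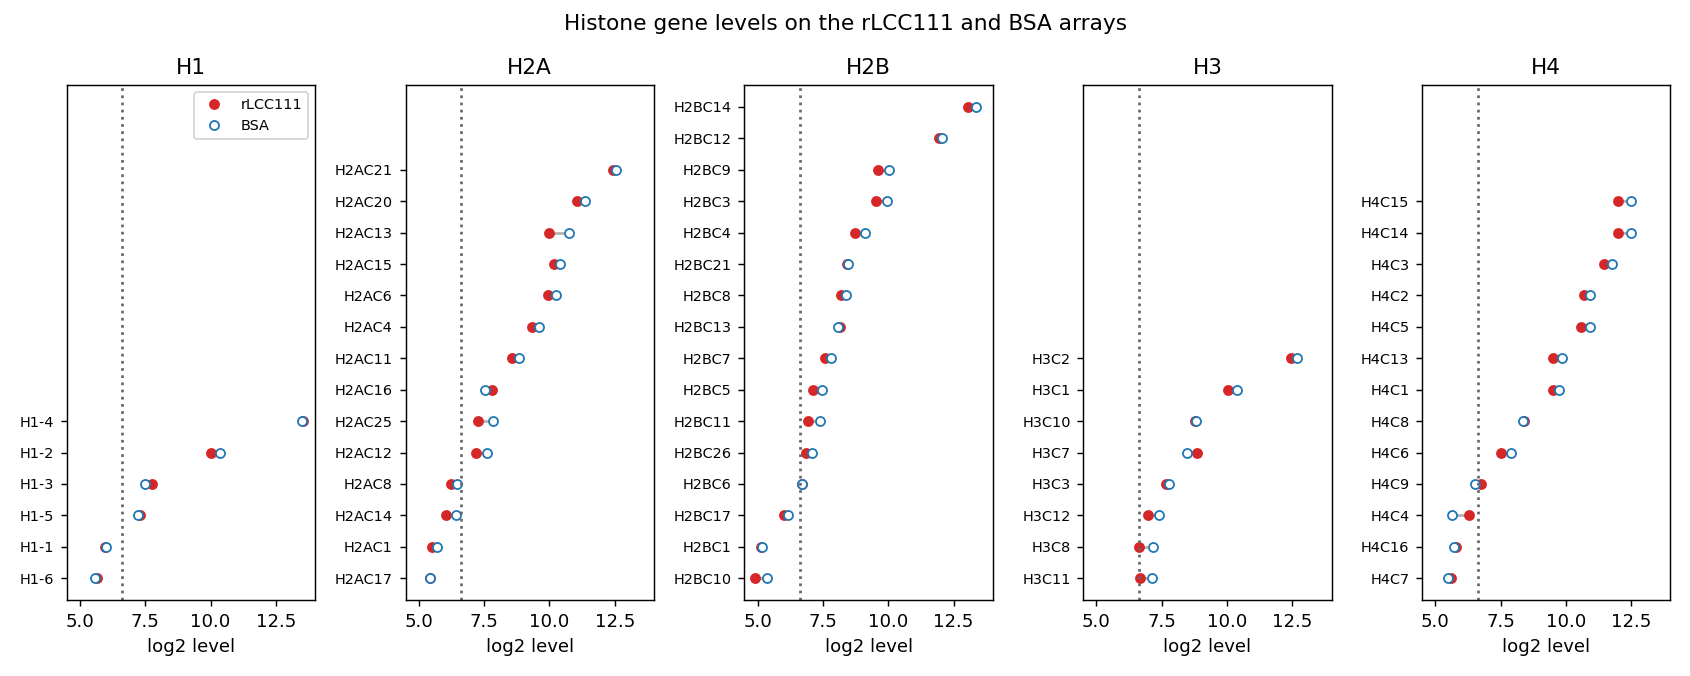
Log2 level of each of the 57 histone genes (horizontal axis, no further unit) on rLCC111 (filled red) and BSA (open blue), 1 array per coating, in 1 panel per family with the highest mean level on top. The dotted line marks the limit of 6.62; the red point lies left of the blue for 43 genes.

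The promoters of the members that the results turn on are shown here because the families differ in their upstream elements, which the choice of genes did not use. Each stretch holds the 110 bases before the RefSeq start site in GRCh38.p14, 5′ to 3′ on the strand of the gene. Capitals mark the TATA element TATAAA, the box of the CCAAT-binding factors, and the octamer ATTTGCAT, in either orientation. H2AC13 and H2BC13 are neighbours read in opposite directions, H2BC14 and H3C2 are bright core genes, H3C7 was higher on rLCC111, and H4C5 and H1-4 stand for their families.
H2AC13, chr6:27808063-27808172, + strand: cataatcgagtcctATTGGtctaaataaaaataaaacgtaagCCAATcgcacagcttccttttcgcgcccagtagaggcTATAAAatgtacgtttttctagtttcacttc
H2BC13, chr6:27807930-27808039, - strand: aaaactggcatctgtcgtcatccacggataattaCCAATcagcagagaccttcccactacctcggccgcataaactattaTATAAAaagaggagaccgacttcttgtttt
H2BC14, chr6:27814912-27815021, + strand: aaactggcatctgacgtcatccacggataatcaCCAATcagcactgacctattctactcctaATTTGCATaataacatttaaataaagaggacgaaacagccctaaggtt
H3C2, chr6:26032100-26032209, - strand: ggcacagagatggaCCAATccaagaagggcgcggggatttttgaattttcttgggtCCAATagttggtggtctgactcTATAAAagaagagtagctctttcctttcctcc
H3C7, chr6:26250636-26250745, - strand: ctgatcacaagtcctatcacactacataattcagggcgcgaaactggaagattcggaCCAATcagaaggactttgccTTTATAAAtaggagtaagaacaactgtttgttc
H4C5, chr6:26204500-26204609, + strand: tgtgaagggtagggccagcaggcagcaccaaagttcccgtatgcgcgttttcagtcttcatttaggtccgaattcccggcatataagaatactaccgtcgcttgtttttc
H1-4, chr6:26156219-26156328, + strand: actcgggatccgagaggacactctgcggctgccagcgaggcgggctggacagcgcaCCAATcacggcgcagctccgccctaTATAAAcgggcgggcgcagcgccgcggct

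RefSeq promoter windows of 300 bases, 250 before and 50 after the start, were matched to 52 of the 57 genes and scanned on both strands. The octamer ATTTGCAT, or ATGCAAAT on the other strand, which is the site of octamer-binding factors in H2B promoters, was found in 13 of 16 H2B and 10 of 13 H2A windows and in none of the 23 windows of H1, H3 and H4 genes. It was found in 1.8% of all 27305 windows of the table. H2A and H2B neighbours share most of a window, so these counts overlap. CCAAT or ATTGG was found in all 41 windows of H1, H2A, H2B and H3 genes and in 3 of 11 H4 windows, against 35.7% of all windows. TATAAA or TTTATA was found in 34 of the 52 windows, against 12% of all. The median difference was -0.24 for the 23 genes with the octamer and -0.20 for the 29 without it. For TATAAA it was -0.17 in the 34 genes with a match and -0.30 in the 18 without. TATAAA was found in 10 of 12 dim and 24 of 40 bright windows. Among bright genes the medians were -0.25 in the 24 with TATAAA and -0.30 in the 16 without. For CCAAT the median was -0.22 in the 44 genes with a match and -0.09 in the 8 without. Among bright genes the order was the other way, with -0.25 in the 35 with CCAAT and -0.36 in the 5 without. Among dim genes the medians were -0.16 in the 9 with CCAAT and 0.13 in the 3 without. Within H4 the 5 genes with TATAAA had a median of 0.05 and the 6 without it -0.36, and the 3 genes with CCAAT had -0.33 and the 8 without it -0.09. Bright and dim H4 genes were not separated in these H4 medians. The 8 windows without CCAAT were all of H4 genes, and the octamer was found in H2A and H2B windows alone. In the medians over all families, CCAAT and the octamer thus cannot be told apart from family. The medians with and without a motif come from few genes and were not tested. A match is a run of letters and was not tested as a binding site.

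Of the 14 H2A genes, which form a dimer with H2B in the core, 12 were below 0 and 2 above, with a median difference of -0.27. At least 1.2-fold lower were 8 of them and at least 1.2-fold higher none. Among all genes 5.89% were at least 1.2-fold lower and 6.76% at least 1.2-fold higher, the shares to set beside each family. H2AC13 had the largest difference of all histone genes, with log2 levels of 10.00 on rLCC111 and 10.74 on BSA, a fold of 0.60. In all, 48 of the 18417 genes had a lower difference than H2AC13. A further sequence, shared by H2AC13 and H3C10, had a difference of -0.14, so the sequences that hold H2AC13 differ in size. H2AC25, of the small HIST3 cluster, was at 7.26 on rLCC111 and 7.83 on BSA, a fold of 0.673. Next in size was H2AC12, at 7.21 on rLCC111 and 7.60 on BSA. The 2 brightest H2A sequences gave smaller differences than H2AC13, H2AC25 and H2AC12, and H2AC13 was next in level. H2AC21 was at 12.43 on rLCC111 and 12.53 on BSA, and H2AC20 at 11.07 on rLCC111 and 11.37 on BSA. H2AC15, H2AC6, H2AC4 and H2AC11 lay between -0.30 and -0.25. H2AC16 was the bright H2A gene with the other sign, at 7.79 on rLCC111 and 7.53 on BSA. The 4 dim genes were H2AC8, H2AC14, H2AC17 and the testis gene H2AC1, with differences from -0.38 to 0.01.

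Of the 16 H2B genes, 14 were below 0 and 2 above, with a median of -0.22, and 7 were at least 1.2-fold lower. H2BC14, whose promoter above holds the octamer, was at 13.04 on rLCC111 and 13.34 on BSA, a fold of 0.813. H2BC12 was at 11.92 on rLCC111 and 12.07 on BSA, and H2BC9 at 9.63 on rLCC111 and 10.01 on BSA. The largest difference of a bright H2B gene was that of H2BC11, at 6.94 on rLCC111 and 7.40 on BSA, a fold of 0.727. H2BC3, H2BC4 and H2BC5 were lower by similar amounts, with differences of -0.41, -0.40 and -0.34. H2BC13, the highest, was at 8.17 on rLCC111 and 8.06 on BSA. H2BC21, H2BC6, H2BC7, H2BC8 and H2BC26 completed the bright genes, with differences from -0.22 to 0.01. The dim genes were H2BC10, at 4.91 on rLCC111 and 5.37 on BSA, H2BC17 and the testis gene H2BC1, all below 0.

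All 8 H3 genes were bright, 7 were below 0 and 1 above, and their median was -0.27. H3C2 was at 12.46 on rLCC111 and 12.67 on BSA, H3C1 at 10.05 on rLCC111 and 10.39 on BSA, and H3C10 at 8.76 on rLCC111 and 8.80 on BSA. H3C1 was thus at least 1.2-fold lower, and H3C2 and H3C10 were not. The lowest H3 difference was that of H3C8, at 6.64 on rLCC111 and 7.16 on BSA, a fold of 0.698, which brought it close to the limit of silent genes. H3C11 and H3C12 had differences of -0.44 and -0.42 at similarly low levels, and H3C3 had -0.11. H3C7 went the other way, at 8.83 on rLCC111 and 8.48 on BSA, a fold of 1.28. It was the sole bright histone gene that was at least 1.2-fold higher, and its promoter above holds CCAAT and TATAAA as that of H3C2 does.

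Of the 13 H4 genes, 8 were below 0 and 5 above, with a median of -0.26. H4C14 and H4C15 of the HIST2 cluster gave the same levels, 12.003 on rLCC111 and 12.498 on BSA, a fold of 0.710, and their 2 sequences are best read as 1 measurement. A sequence pair that carries both symbols gave 8.18 on rLCC111 and 8.30 on BSA, a difference of -0.12, so the sequences of H4C14 and H4C15 differ in size. Counted once, H4C14 and H4C15 leave 25 of 56 histone genes at least 1.2-fold lower. H4C3 was at 11.46 on rLCC111 and 11.76 on BSA. H4C5, H4C13, H4C1, H4C2 and H4C6 lay between -0.37 and -0.23. Thus 8 of the 10 bright H4 genes were lower, with a median of -0.32 over the 10. The other bright genes were H4C8, with a difference of 0.04, and H4C9, at 6.77 on rLCC111 and 6.54 on BSA, which straddles the limit. The 3 dim genes were all above 0. H4C4, named because it stood out once its values were seen, was at 6.28 on rLCC111 and 5.62 on BSA, a fold of 1.58 with both arrays below the limit. H4C7, which encodes a divergent H4 protein, and H4C16, the H4 gene outside the main clusters, had differences of 0.13 and 0.05.

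The 6 genes of linker histone H1 did not share a direction. Their median difference was 0.05, and -0.03 after median centring, with 2 genes below 0 and 4 above. H1-4, with a level of 13.53 on rLCC111 and 13.51 on BSA, had a fold of 1.01. H1-2 was at 10.02 on rLCC111 and 10.36 on BSA, a fold of 0.790, and was the H1 gene that was at least 1.2-fold lower. H1-3 was at 7.75 on rLCC111 and 7.48 on BSA, a fold of 1.199 that was just short of the limit for higher genes. H1-5 had a difference of 0.08, and the dim genes H1-1 and the testis gene H1-6 had -0.04 and 0.11. Over the 51 core histone genes the median was -0.26, with 41 below 0 and 25 at least 1.2-fold lower. The medians of H2A, H2B, H3 and H4 lay between -0.27 and -0.22, so these families are not ranked here, and no test of H1 against the core families was possible with 1 array per coating.

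**Figure D2:**
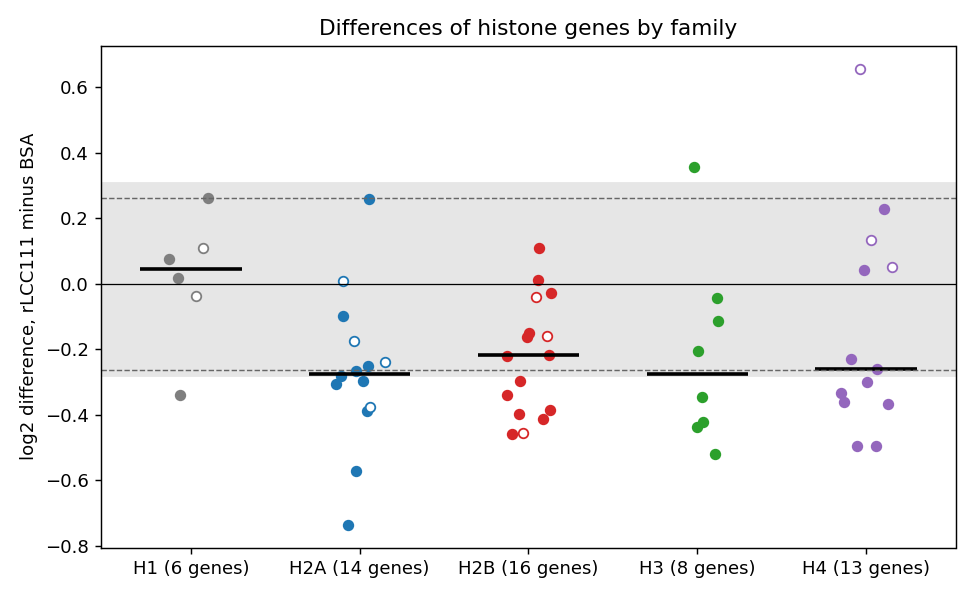
Log2 difference of each histone gene (vertical axis), by family, with filled points for bright genes, open points for dim genes, thick lines for family medians, dashed lines at 1.2-fold and a grey band from the 5th to the 95th percentile of all genes, -0.28 to 0.31. The medians of H2A, H2B, H3 and H4 lie between -0.27 and -0.22 and that of H1 at 0.05.

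As a set, bright copies had a lower median difference than dim ones. The 45 bright genes had a median difference of -0.28, with 36 below 0, 9 above and 24 at least 1.2-fold lower, when 50.5% of all genes above the limit were below 0 and 46.5% above. The 12 dim genes had a median of -0.04, with 7 below 0, 2 at least 1.2-fold lower, which are H2AC14 and H2BC10, and 1 at least 1.2-fold higher, which is H4C4. By family, the dim medians were -0.21 for 4 H2A, -0.16 for 3 H2B, 0.13 for 3 H4 and 0.03 for 2 H1 genes. The bright medians of the same families were -0.29, -0.22, -0.32 and 0.05, so the pooled dim median depends on the mix of families. Among all genes at or below the limit the median was 0.00, with 38.4% below 0 and 45.6% above. Of these genes, 3.25% were at least 1.2-fold lower and 4.68% at least 1.2-fold higher, the shares to set beside the dim counts. The dim copies had signals in the range of silent genes on both arrays, and the part of low signal in this gap was not tested. Within the 41 bright core genes the size did not grow with the level. The 15 with the highest levels had a median of -0.30 and were all below 0, the 13 in the middle had -0.16, and the 13 with the lowest levels had -0.37. Across all 57 genes the level and the difference had a Pearson r of -0.30 and a Spearman rho of -0.27, and across the 45 bright genes -0.18 and -0.08. These points share the same 2 arrays and, in part, probes, and the values are descriptions.

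**Figure D3:**
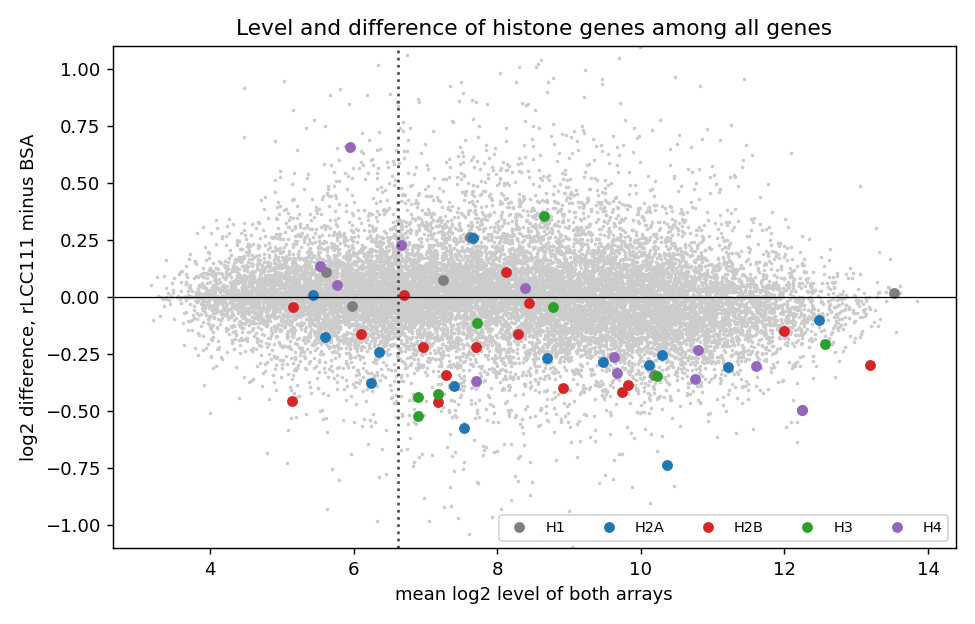
Log2 difference (vertical axis) against the mean log2 level of both arrays (horizontal axis) for all genes (grey) and the histone genes (coloured by family); 49 of the grey genes lie outside the axis limits of 1.1. To the right of the dotted limit of 6.62, 36 of the 45 histone genes lie below 0, at all levels.

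The lower levels were found in each of the main gene clusters. Of all genes, 46.6% were below 0 and 5.89% at least 1.2-fold lower, the shares to set beside the counts that follow. The 49 genes of HIST1, the large cluster on chromosome 6, had a median of -0.24, with 36 below 0. The 5 genes of HIST2 and the 2 of HIST3, both on chromosome 1, were all below 0, with medians of -0.31 and -0.40, and the HIST4 gene H4C16 on chromosome 12 was dim. The HIST2 median counts H4C14 and H4C15, which gave the same levels, as 2 genes. Their shared difference was -0.49, and H2AC20, H2AC21 and H2BC21 had -0.31, -0.10 and -0.03, so the clusters are not ranked here. Another 12 histone genes of RefSeq are represented on the array by sequences that carry several symbols and were not members. The sequences on which every symbol follows the naming of the chosen genes gave 11 distinct values, of which 10 were below 0 and 6 at least 1.2-fold lower, with a median of -0.27. The sequence of H3C4 and H2AC7 was lowest among them, at 10.11 on rLCC111 and 10.68 on BSA, a fold of 0.675. Those of H4C11 and H4C12 had differences of -0.35 and -0.31, and those of H3C13, H3C14 and H3C15 lay between -0.28 and -0.24. The sequence of H3C11 and H3C6, with levels under 4, was the exception at 0.19. A further 6 sequences join such a gene to a pseudogene or to another name, and their differences ran from -0.22 to 0.09, with 4 below 0, 2 above and none at least 1.2-fold lower. They include all 4 sequences of H2BC18, at -0.10, -0.10, -0.06 and 0.09. The testis histone gene H3-4 and the pseudogene H2BC19P, whose current names fall outside the choice of genes, had differences of -0.06 and -0.22.

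Neighbouring H2A and H2B genes read in opposite directions from a shared stretch of promoter had the same sign in most cases. Of 11 such pairs with start sites within 1000 bases, 9 had both genes measured, and both were below 0 in 7 of them. H2AC6 and H2BC4 had differences of -0.30 and -0.40, H2AC14 and H2BC14 -0.38 and -0.30, and H2AC11 and H2BC11 -0.27 and -0.46. In the pair whose promoters are shown above, H2AC13 had -0.74 and H2BC13 0.11, the widest gap of the 9 at 0.84. H2AC20 and H2BC21 differed by 0.28 and H2AC25 and H2BC26 by 0.35. Since 75.4% of all histone genes were below 0, the shared sign was not read as a property of pairs.

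**Figure D4:**
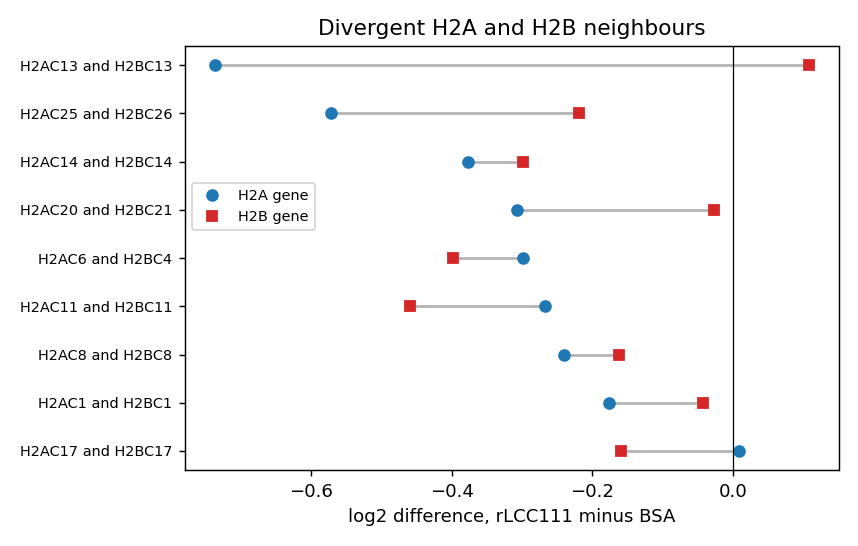
Log2 difference (horizontal axis) of the H2A gene (blue circle) and the H2B gene (red square) in each of 9 divergent pairs, joined by a line. Both points lie below 0 in 7 pairs, and H2AC13 and H2BC13 are farthest apart.

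Other short genes, a comparison chosen after the histone values were seen, gave other counts. Of 68 protein-coding genes outside the histone set with a RefSeq span of at most 1000 bases and a level above the limit, none was at least 1.2-fold lower and 4 were at least 1.2-fold higher, with a median of 0.00. Receptor genes above the limit were not removed from these 68, which were not matched to the histone genes in level, so a part of gene length was not tested. Among all genes above the limit, 7.14% were at least 1.2-fold lower and 7.74% at least 1.2-fold higher. Among the histone genes, the 52 with a span of at most 1000 bases had a median of -0.24, and the 5 with a longer annotated span, H2BC4, H2BC5, H2BC12, H2BC21 and H4C15, had -0.34. H4C15 gave the same levels as H4C14, which is among the 52, so the same measurement stands in both groups. H2BC4, H2BC5, H2BC12 and H2BC21 had differences of -0.40, -0.34, -0.15 and -0.03, and the groups are not ranked here. The sensory receptor genes, taken as silent, leaned the other way, with 187 of 379 above 0 and 114 below, and with 4 at least 1.2-fold lower and 24 at least 1.2-fold higher.

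S-phase genes and genes that act with histones were slightly lower as lists, and by less than the histone genes. The shares to set beside each list are those of all genes with a mean level above the limit. Of these, 50.5% were below 0, 7.14% at least 1.2-fold lower and 7.74% at least 1.2-fold higher. Of 42 S-phase genes, 34 were below 0 and 7 above, with a median of -0.15, and 6 were at least 1.2-fold lower and none at least 1.2-fold higher. CDC6, which loads the replicative helicase, was at 10.46 on rLCC111 and 10.89 on BSA. RPA2, a subunit of the protein that binds single-stranded DNA, was at 8.38 on rLCC111 and 8.75 on BSA. The primase gene PRIM2 had a difference of -0.34 and the helicase gene MCM2 -0.31. All of these are genes whose products act at replication forks or load them.

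Genes of histone transcription pointed in both directions. Of 15 measured, 10 were below 0 and 5 above, with a median of -0.11, and none was at least 1.2-fold lower. CCNE1, which encodes cyclin E1, was at 9.08 on rLCC111 and 8.72 on BSA, a fold of 1.29. The other cyclin E gene, CCNE2, went the other way, at 10.34 on rLCC111 and 10.47 on BSA, and CDK2 had a difference of -0.13. CCNE2 and CDK2 were named after their values were seen. CASP8AP2, the FLASH protein of histone locus bodies, was at 8.50 on rLCC111 and 8.23 on BSA, a fold of 1.204. E2F4 had a difference of -0.22 and GON4L 0.17. NPAT, the coactivator of histone genes and a substrate of cyclin E with CDK2, was named for its role after its value was seen, at 10.19 on rLCC111 and 10.14 on BSA.

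Of 29 genes of histone mRNA processing and decay, 19 were below 0 and 10 above, with a median of -0.08, and 6 were at least 1.2-fold lower. LSM5, LSM3 and LSM4, subunits of rings that bind RNA ends, had differences of -0.42, -0.38 and -0.32. ERI1, the exonuclease that trims the histone stem-loop, was at 9.01 on rLCC111 and 9.30 on BSA. SLBP, the stem-loop binding protein, likewise named for its role after its value was seen, was at 10.70 on rLCC111 and 10.65 on BSA. It is also counted among the S-phase genes. The genes of these main regulators, NPAT and SLBP, were thus within 0.06 between the arrays.

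Among 27 histone chaperones, 22 were below 0 and 5 above, but the median was -0.05. ASF1A, which hands H3 and H4 to the assembly factors, was at 9.98 on rLCC111 and 10.34 on BSA, a fold of 0.781. CABIN1, of the HIRA complex, was 1.21-fold higher. DAXX, a chaperone of H3.3, had a difference of -0.23, and the importin gene IPO5 -0.17. ASF1A and CABIN1 were the chaperone genes past 1.2-fold. Among 13 genes of histone variants, which are made also outside S phase, 8 were below 0 and 4 above with a median of -0.04. H2BW1 was below the limit on both arrays, and the 12 others had a median of -0.05. H1-10 was at 9.51 on rLCC111 and 9.88 on BSA, a fold of 0.776, while H2AZ1, H2AX and H3-5 had differences of -0.20, -0.14 and -0.13. H3-3B, which encodes H3.3 and was named for its role after its value was seen, had -0.04 at a level of 11.60 on rLCC111 and 11.64 on BSA.

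**Figure D5:**
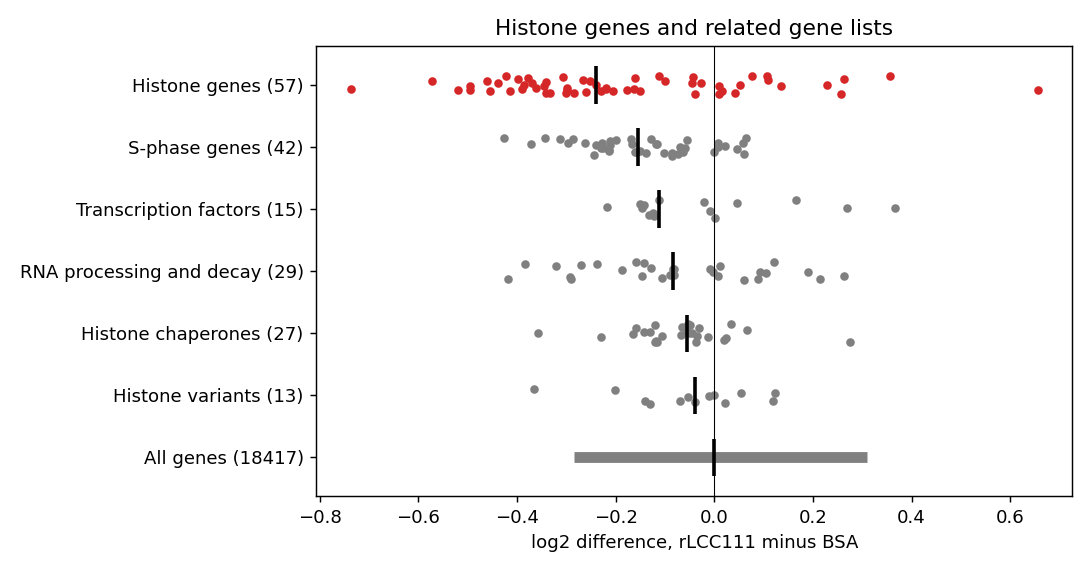
Log2 difference (horizontal axis) of each gene of the histone set (red) and of 5 lists of related genes (grey), with the number measured and black bars for medians; the thick line for all genes runs from their 5th to their 95th percentile. The histone median of -0.24 lies farthest below 0, followed by the S-phase genes at -0.15.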

How the data were processed

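Total RNA of HT1080 cells was labelled with a whole-transcript kit and hybridised to GeneChip Human Gene 1.0 ST arrays, 1 per coating. The deposited values are log2 levels that the authors made with RMA in Affymetrix Expression Console; its version, library files and genome build are not given in the sources used here, and RMA settings were not stated. The methods name limma, which cannot estimate a spread with 1 array per group, so no test was run and the precision is limited by the number of arrays.

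Levels were used as deposited. Of 33297 sequences, 19460 carry 1 symbol, 1754 several and 12083 none in the platform annotation. Symbols were checked against RefSeq GRCh38.p14, which held the gene identifier of 19429 sequences and altered no symbol. For genes with several sequences the brightest on average was kept, and each histone gene had 1.

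Counts use limits of 1.2-fold and 2-fold. Per family, genes named with levels are the 3 with the highest mean level and the lowest and highest differences above the silent limit; of each list, the 4 largest differences above it. All other histone genes are given by their differences or ranges, and some with levels that were chosen after their values were seen. The members and lists were chosen with earlier results of these data known. The comparison with other short genes and the single count of H4C14 and H4C15 were chosen after seeing the data.

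The results were recomputed after median centring, after subtraction of a lowess curve of difference on level (span 0.2, 3 iterations), after quantile normalization, and with filters on low levels, means over sequences, added or omitted members, the 2-fold limit and another division into bright and dim. Counting and scaling were tested on simulated data. Sequences are from RefSeq; where a gene had several promoter windows the first of the table was used. Tables and figures were made in Python 3.11.15 (matplotlib 3.10.9, pandas 2.3.3, numpy 2.4.6, statsmodels 0.14.6, scipy 1.17.1).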

Additional observations from a re-analysis of the deposited data

How the results depend on the processing

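Of 157 values recomputed under alternatives, 146 stayed within 0.1 log2 or, for counts, within 1.5 times, and none of the medians of at least 0.1 in size changed sign. The histone median lay between -0.32 and -0.24 over its 9 alternatives. Scaling moved the median of all genes by at most 0.08, to -0.08 after median centring. Median centring left 8 histone genes above 0, quantile normalization 9, the filter on the brighter array 9 and that on both arrays 8. Under these settings 73.6%, 65.8%, 50.3% and 50.7% of all genes were below 0, in that order. With either filter 1 gene, H3C7, was at least 1.2-fold higher, and both genes were below 0 in 4 divergent pairs, since fewer genes remained. At least 1.2-fold higher were 8.01% of all genes that passed the filter on the brighter array and 7.44% of those that passed on both. The number at least 1.2-fold lower lay between 24 and 33, except with the 2-fold limit, which left 0 lower and 0 higher. The share of all genes moved as well. Median centring gave 33 histone genes against 11.7% of all genes, and quantile normalization 30 against 8.55%. Each filter gave 24, against 7.19% of genes for the brighter array and 6.94% for both arrays. The gap between bright and dim genes, -0.24, was -0.13 when they were divided at the members' median level. No paired analysis was possible because each coating has 1 array. The dim genes rest on signals no higher than those of silent genes, and differences of the size of most histone genes have no replicate check.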
